A study of Heterocephalus glaber and Mus musculus with 6 samples.

Results

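Nucleotide excision repair and direct alkyl reversal were described in mouse epidermal keratinocytes through 6 genes, Ercc3, Ercc4, Ercc5, Ercc6, Ddb2 and Mgmt. They were chosen by their GENCODE symbols, and each matched 1 row of its own among 42675 mouse rows that carry an Ensembl gene identifier. The cells came from the back skin of FVB mice aged 7 to 8 weeks, without treatment, and were sorted on CD49f after the epidermis had been freed with dispase. Total RNA depleted of ribosomal RNA was sequenced in 3 libraries, which form 1 group, so no contrast between conditions was available and no p-value is given. Naked mole-rat libraries of the same study were not used here, because their rows carry no gene names. The labels do not say whether the 3 mouse libraries came from separate animals, so the spread between them may be partly technical.

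Nucleotide excision repair cuts out a short stretch of DNA around bulky lesions, among them the pyrimidine dimers that ultraviolet light makes in skin. Lesions are found either across the genome, by Xpc and by the Ddb1 and Ddb2 complex, or where RNA polymerase II stalls, by Ercc6 and Ercc8; the helicases Ercc3 and Ercc2 of the transcription factor TFIIH then open the DNA, and the nucleases Ercc5 and Ercc4, the latter bound to Ercc1, cut on either side. Inherited loss of several of these genes in humans causes xeroderma pigmentosum or Cockayne syndrome, both with sensitivity to sunlight. Mgmt works without excision: it takes an alkyl group from guanine onto a cysteine of its own and is used up in doing so.

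The coding sequence at the catalytic site is shown for a nuclease and an ATPase among the members, from the GENCODE transcripts of GRCm38 and on the plus strand, written 5′ to 3′. Capitals mark the codons of the nuclease motif that opens with glutamate, arginine and lysine and closes with aspartate in Ercc4, and of the ATP-binding glycine, leucine, glycine, lysine and threonine in Ercc6.
Ercc4: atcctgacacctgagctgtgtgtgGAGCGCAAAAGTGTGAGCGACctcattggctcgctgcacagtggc
Ercc6: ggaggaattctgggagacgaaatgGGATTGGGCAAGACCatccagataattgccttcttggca

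The marked codons of Ercc4 lie in the last of 11 exons, at chr16:13147681-13147701. Those of Ercc6 lie in exon 7 of 21, at chr14:32546821-32546835. Coding sequence made up 52.7% of the Ercc6 transcript and 79.1% of the Ercc4 transcript. These are the longest protein-coding transcripts, which serve below as an alternative divisor for levels per length. The merged exons, the main divisor, are longer for both genes.

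The mouse libraries held 52499080, 53465434 and 52970733 counts. Rows with an Ensembl identifier took 11.4%, 11.5% and 10.6% of them, and the other rows are assembled loci without names. A level in CPM is the count of a row per 1000000 counts of its library. Library 1 alone had high counts of the Y-linked genes Ddx3y (3483, 0 and 0 counts) and Uty (3185, 0 and 0), so the libraries do not all come from the same animals. Library 1 thus holds male cells, and libraries 2 and 3 show no sign of them. The part of sex in any difference of library 1 from the others was not tested. The defining basal keratinocyte genes Krt5, Krt14, Itga6 and Trp63 have no row of their own in the tables used here, which leaves the labelled cell type without a check by them. Of the 10 basal and 10 suprabasal markers listed, 1 and 3 had rows, and they summed to 42.4 to 53.5 and 22.6 to 27.9 CPM. Of the markers of other cells, all 5 of Merkel cells had rows at 0 counts, 4 of 7 of fibroblasts summed to 0.495 to 0.673 CPM with Lum and Pdgfrb at 0, and 6 of 6 of endothelium to 0.472 to 0.743 CPM with Kdr, Cdh5 and Emcn at 0. Leukocyte and T cell markers (4 of 6 with rows) summed to 1.22, 1.72 and 2.30 CPM in libraries 1, 2 and 3, and Langerhans and myeloid markers (2 of 7) to 1.49, 0.898 and 3.10, with Lyz2 at 0, 0 and 59 counts. Both were thus highest in library 3. Melanocyte markers (5 of 6) summed to 7.97 to 10.2 CPM, nearly all of it Mitf, with Tyr and Mlana at 0. In such bulk libraries, fewer cells of a type and less RNA per cell cannot be told apart.

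Only some of the excision repair genes could be read. Of the 11 core genes, Ercc3, Ercc4, Ercc5, Ercc6 and Ddb2 had a row of their own, while Xpa, Xpc, Ddb1, Ercc1, Ercc2 and Ercc8 had none. The partners Ddb1 of Ddb2, Ercc1 of Ercc4, Ercc2 of Ercc3 and Ercc8 of Ercc6 therefore could not be set beside them. Over a wider list of 55 excision repair genes, 19 had a row (34.5%), against 66.3% of all 22028 annotated protein-coding genes. A gene without a row is not shown to be silent, since its reads may have been assigned to an unnamed locus.

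Ddb2, the subunit that binds ultraviolet lesions in chromatin, was present in every library and was the most variable of the 5 excision repair members. It lies on chromosome 2 from 91211572 to 91236982 (GRCm38, minus strand). Its counts were 1024, 1158 and 990 in libraries 1, 2 and 3, or 19.5, 21.7 and 18.7 CPM. Library 2 was the highest, and its exact 95% Poisson interval of 20.4 to 22.9 CPM did not overlap the 17.5 to 19.9 CPM of library 3. These intervals cover counting error only, and the gap depends in part on the scaling. The log2 difference of Ddb2 from the mean of the other 2 libraries was 0.18 in library 2 and −0.14 in library 3. For the median of named genes with at least 10 counts on average it was 0.073 and −0.098. The mean level was 20.0 ± 1.53 CPM (SD, n = 3). At its 3′ end the exons overlap those of Acp2, an acid phosphatase gene on the opposite strand, over 652 bases or 23.8% of the Ddb2 exon length. The library kit keeps strand, but whether the counting used it is not given in the sources used here, so reads in that overlap may be shared. Acp2 had 1017, 851 and 832 counts, highest in library 1 where Ddb2 was not.

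Ercc6, the ATPase known as CSB that recognises a stalled RNA polymerase, had the highest CPM of the 6 genes. It spans chromosome 14 from 32513521 to 32580990. Its counts of 2321, 2289 and 2204 gave 44.2, 42.8 and 41.6 CPM, a mean of 42.9 ± 1.30 CPM (SD, n = 3). The highest library exceeded the lowest by 6.25%, the narrowest range among the members, and the intervals of all 3 libraries overlapped. By CPM, 90.6% of the 6595 measured protein-coding genes were lower, where measured means an average of at least 10 counts over the 3 libraries.

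Ercc3, the TFIIH helicase also called XPB that opens DNA both for repair and at promoters, was close to even across libraries. It lies on chromosome 18 from 32240300 to 32270151. It had 1402, 1421 and 1317 counts, equal to 26.7, 26.6 and 24.9 CPM, with a mean of 26.0 ± 1.03 CPM (SD, n = 3). Library 3 was lowest, and its interval of 23.5 to 26.2 CPM overlapped that of library 1, 25.3 to 28.1 CPM.

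The incision nucleases Ercc5 and Ercc4 were at similar CPM. Ercc5, or XPG, which cuts on the 3′ side of the lesion, lies on chromosome 1 from 44147744 to 44181260 and had 2087, 1959 and 2013 counts. These were 39.8, 36.6 and 38.0 CPM, a mean of 38.1 ± 1.56 (SD, n = 3), with library 2 lowest and overlapping intervals. Ercc4, or XPF, which cuts on the 5′ side, lies on chromosome 16 from 13109684 to 13150617 and had 1849, 1874 and 1681 counts. They gave 35.2, 35.1 and 31.7 CPM, a mean of 34.0 ± 1.97 (SD, n = 3). Library 3 stood below both others here: its interval of 30.2 to 33.3 CPM overlapped neither 33.6 to 36.9 in library 1 nor 33.5 to 36.7 in library 2. The log2 difference of library 3 from the mean of the other 2 was −0.15 for Ercc4. For the median measured gene it was −0.098. Relative to that median Ercc4 stood at −0.048, so the separation depends in part on the scaling.

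Mgmt was the lowest of the 6 genes in each library. The gene covers chromosome 7 from 136894614 to 137130266, and 1.23% of that span is exon. It had 182, 196 and 211 counts, or 3.47, 3.67 and 3.98 CPM, with a mean of 3.71 ± 0.261 CPM (SD, n = 3). Mgmt was highest in library 3, the only member with that order, but its intervals, from 2.98 to 4.01 CPM in library 1 and from 3.46 to 4.56 CPM in library 3, overlapped widely, so no difference between libraries was detectable at this depth. By CPM, 33.8% of measured protein-coding genes were lower.

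**Figure D1:**
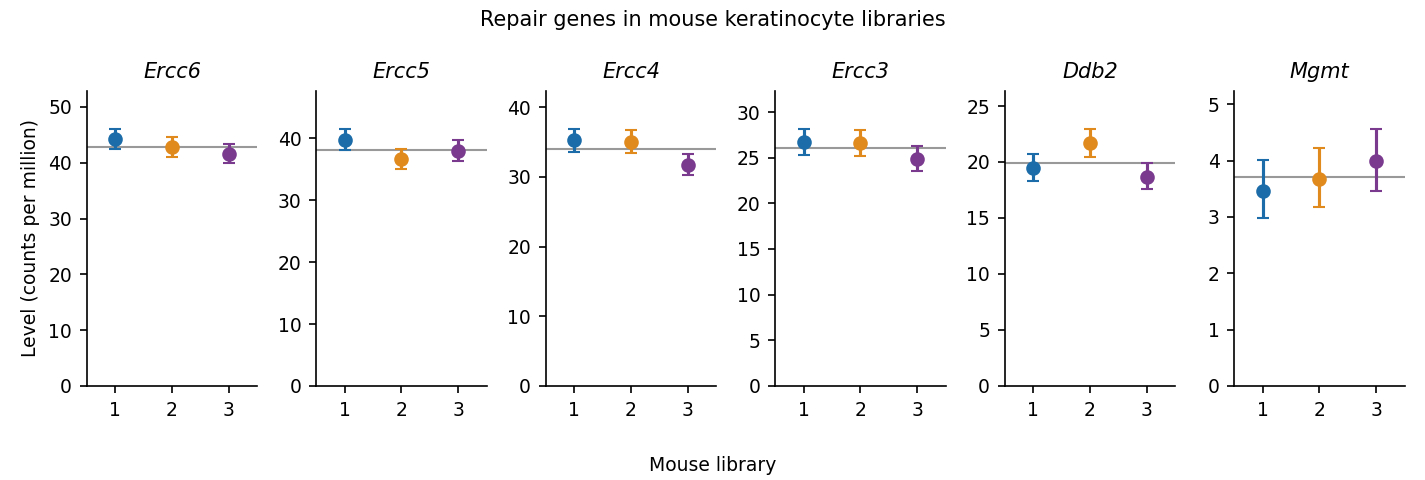
Level of each gene in CPM (vertical axes, each from 0) in mouse libraries 1 to 3 (horizontal axes), with exact 95% Poisson intervals and the mean of the 3 libraries as a line. The points stay close to their mean in every panel, from 41.6 to 44.2 CPM for Ercc6 down to 3.47 to 3.98 CPM for Mgmt.

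Long transcripts collect more counts, so genes were ordered by CPM per kilobase. With the merged length of all annotated exons as the divisor, Ercc3 was highest at 9.19 ± 0.363 CPM per kilobase (SD, n = 3), then Ddb2 at 7.29 ± 0.561, Ercc5 at 6.50 ± 0.266, Ercc4 at 5.05 ± 0.292, Ercc6 at 3.34 ± 0.101 and Mgmt at 1.28 ± 0.090. No neighbours overlapped in their library values, but Ddb2 and Ercc5 nearly touched, with a lowest Ddb2 value of 6.83 and a highest Ercc5 value of 6.78. Their means differed by 0.789 CPM per kilobase against a larger SD of 0.561, so the order of that pair is not clear of the spread. Ercc3 was 1.26 times Ddb2, and Ercc6 was 2.61 times Mgmt.

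The order of the upper 4 genes depends on which transcript is taken as the gene. Divided by the longest protein-coding transcript, Ercc4 had 9.77 ± 0.565, Ercc5 9.76 ± 0.399, Ercc3 9.62 ± 0.380 and Ddb2 8.95 ± 0.689 CPM per kilobase (SD, n = 3), and their library values overlapped. The helicase, both nucleases and the lesion-binding subunit could then not be ranked. Ercc6 at 5.09 ± 0.155 and Mgmt at 1.28 ± 0.090 kept the last places by either length. The merged exons of Ercc6 measure 12851 bases against 8423 in its longest coding transcript, those of Ercc4 6730 against 3480, while Mgmt has 1 annotated transcript of 2894 bases.

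**Figure D2:**
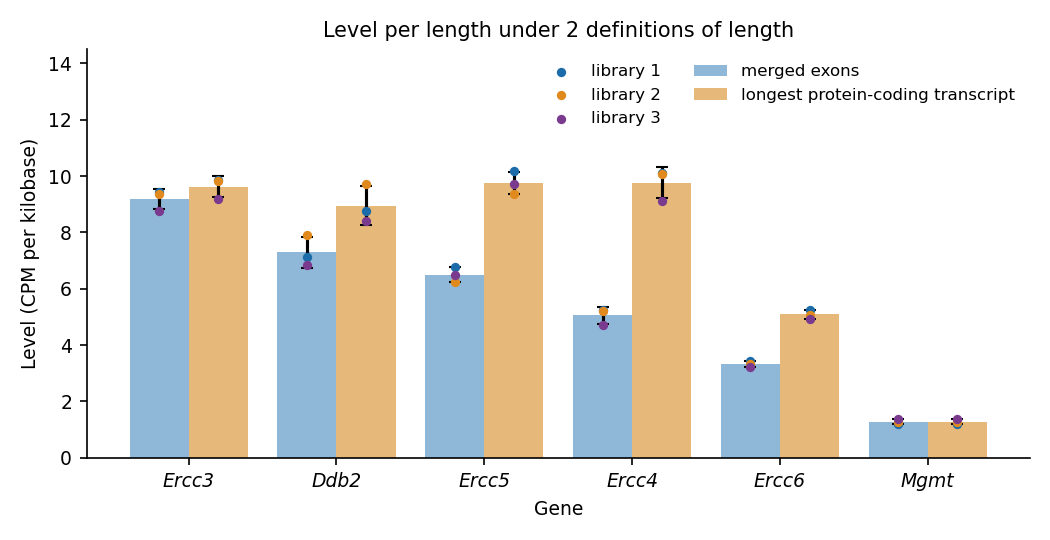
Level in CPM per kilobase (vertical axis) of each gene (horizontal axis), divided by merged exon length (blue bars) or by the longest protein-coding transcript (orange bars). Bars are means with SD over 3 mouse libraries and points are libraries; the upper 4 genes change order between the lengths (Ercc4 moves from 5.05 to 9.77), whereas Ercc6 and Mgmt stay lowest.

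Set among the 6595 measured protein-coding genes by CPM per kilobase of merged exon, the excision repair members were in the upper part of the range. The median was 2.11 and the third quartile 4.56 CPM per kilobase. Ercc3 was above 97.1% of these genes, Ddb2 above 91.8%, Ercc5 above 88.4%, Ercc4 above 78.8% and Ercc6 above 63.9%. Mgmt was above 38.7%. Rows with a name leave out genes whose reads may sit in assembled loci, so these positions hold among named rows only.

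None of the 6 genes stood apart in any library. The deviation of a gene is its log2 CPM in 1 library, with 0.5 added to each count, minus the mean of the other 2 libraries. A deviation of at least 0.32 in either direction was reached by 0 of 6 members in libraries 1, 2 and 3, against 39.8%, 35.7% and 42.0% of the 9965 measured named genes. Genes with low counts make up much of that background. Among the 1985 genes with an average of at least 1000 counts, as 5 of the 6 members have, the shares were 7.61%, 4.38% and 12.9%, so a count of 0 among so few is near the background. The largest deviation of a member was 0.18, for Ddb2 in library 2, followed by 0.16 for Mgmt and −0.15 for Ercc4 in library 3.

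Library 3 was the lowest of the 3 for 4 of 6 members, Ercc3, Ercc4, Ercc6 and Ddb2, where 47.6% of measured genes were lowest there. Library 1 was the highest for 4 of 6, Ercc3, Ercc4, Ercc5 and Ercc6, against 38.0% of measured genes. Both counts are on a scale that sets the median of all measured genes at −0.098 in library 3 and 0.047 in library 1. The members' median deviation was −0.082 in library 3 and 0.061 in library 1. Relative to the median of all genes, 3 of 6 members were higher and 3 lower in library 3. With counts scaled to the total of Ensembl rows only, every gene of library 3 moved up by the same 0.110, by construction. Ercc3, Ercc5 and Ercc6 then lay above 0 there, while Ercc4 at −0.036 and Ddb2 at −0.027 stayed below.

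**Figure D3:**
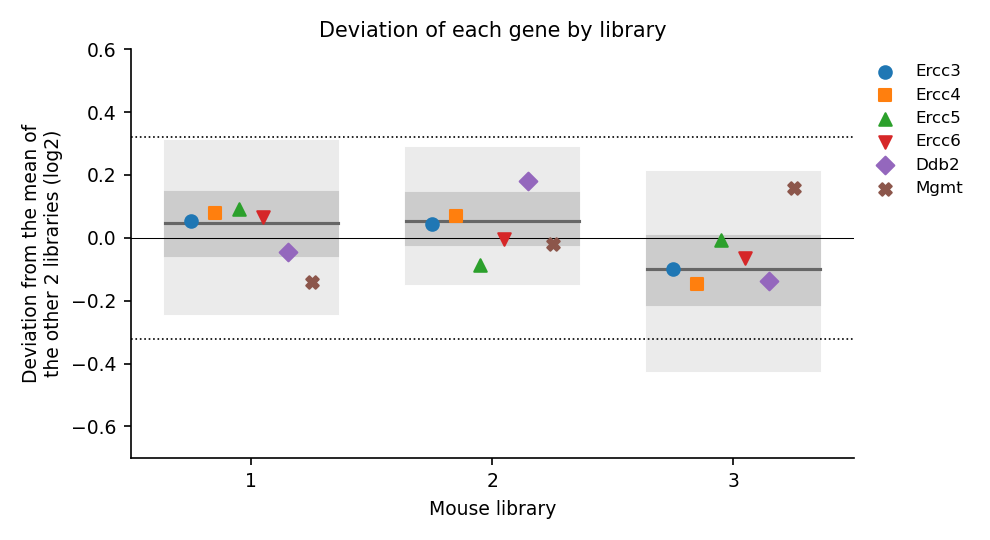
Deviation of each gene from the mean of the other 2 libraries (vertical axis, log2) in mouse libraries 1 to 3 (horizontal axis). Grey boxes hold the middle 50% and 90% of 1985 genes with at least 1000 counts on average, grey lines their medians and dotted lines the limits of 0.32 in either direction; all member points lie inside the limits.

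The members varied little between libraries for their depth. The SD of CPM as a share of the mean was 3.04% for Ercc6, 3.95% for Ercc3, 4.09% for Ercc5, 5.78% for Ercc4 and 7.69% for Ddb2. Counting error alone would give 2.10% for Ercc6 and 3.08% for Ddb2. Mgmt had 7.03%, where counting error gives 7.14%, so its spread was no larger than counting allows if the rows are direct read counts. Measured genes within 0.32 on the log2 scale of a member's mean count give a reference. Of these, 11.8% had a smaller spread than Ercc6 (559 genes), 15.0% than Mgmt (592 genes), 17.4% than Ercc3 (765 genes), 20.3% than Ercc5 (597 genes), 35.0% than Ercc4 (654 genes) and 45.1% than Ddb2 (835 genes). All 6 members were thus on the less variable side of the genes at their depth, Ddb2 by little.

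**Figure D4:**
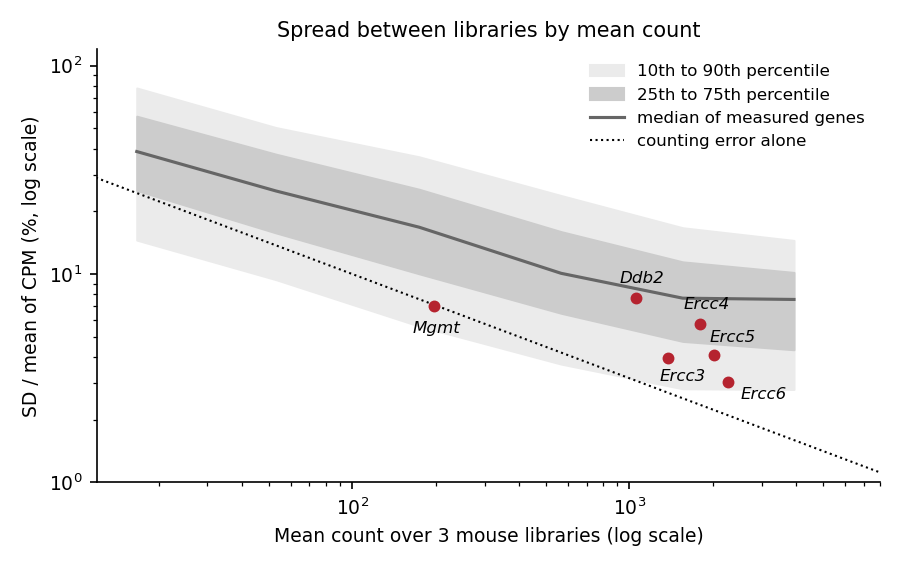
Spread between the 3 mouse libraries (SD over mean of CPM in percent, vertical log axis) against mean count (horizontal log axis). Grey bands give percentiles of measured genes and the dotted line counting error alone; Mgmt at 7.03% lies on that line, and the 5 excision repair members, from 3.04% to 7.69%, lie above it and below the median of genes of like count.

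Most of the other excision repair genes had no row. Those with one spanned a wider range than the 5 excision repair members, which ran from 3.34 to 9.19 CPM per kilobase. Besides the 5 members, 14 genes of the wider list were measured, all with at least 10 counts on average, at 1.43 to 10.7 CPM per kilobase with a median of 5.01. Their median deviation was 0.089, 0.048 and −0.13 in libraries 1, 2 and 3. A deviation of at least 0.32 was reached by 0 of 14 in library 1, 0 of 14 in library 2 and 1 of 14 in library 3. Over all measured genes the shares were 39.8%, 35.7% and 42.0%, and over those with at least 1000 counts 7.61%, 4.38% and 12.9%, so 1 of 14 is no more than the background. In damage recognition, Cul4b, a scaffold of the ubiquitin ligase that holds Ddb1 and Ddb2, had 36.6, 30.1 and 30.3 CPM, highest in library 1. In the transcription-coupled branch, Uvssa, which recruits TFIIH, had 46.9, 39.3 and 38.9 CPM, also highest in library 1. It stood at 4.81 CPM per kilobase beside 3.34 for Ercc6.

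TFIIH was represented by 5 of 10 genes, and Ercc3 was the highest of them per kilobase. The TFIIH subunit gene Gtf2h4 was the lowest, at 1.43 ± 0.178 CPM per kilobase (SD, n = 3), with 243, 288 and 224 counts. Its deviation was 0.28 in library 2 and −0.24 in library 3. Among 4 of 8 incision genes, Slx4, a scaffold that binds Ercc4 and other nucleases, had 24.9, 22.3 and 19.4 CPM. Its deviation in library 3 was −0.28, where Ercc4 had −0.15 and Ercc5 −0.0062.

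In gap filling, 6 of 18 genes had rows, among them the single gene of the 14 past 0.32. Pole, the catalytic subunit of DNA polymerase epsilon, which also copies the genome in S phase, had 56.0, 55.8 and 39.0 CPM. Libraries 1 and 2 were level and library 3 was lower, a deviation of −0.52. Rfc1, the large subunit of the clamp loader, had 61.2, 70.7 and 61.6 CPM and the highest level of the list, 10.7 CPM per kilobase. In library 3 the mitosis list was lower as well, with 11 of 11 measured genes past a deviation of 0.32 and a median deviation of −1.19. Of all measured genes 42.0% were past 0.32 in library 3, and of those with at least 1000 counts on average 12.9%. Cenpf, a kinetochore protein gene, had 34.4, 26.8 and 9.76 CPM. Leukocyte and myeloid markers were highest in the same library, at 2.30 and 3.10 CPM. The part of dividing cells or of leukocytes in any value of library 3 was not tested. The members' deviations in library 3 ran from −0.15 to 0.16. The mitosis list was chosen with earlier results of these data known, so its −1.19 is no neutral measure for the members.

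Direct reversal could be read in 4 of 5 genes, and Mgmt was the lowest of them per kilobase. Alkbh2, an oxygenase that removes methyl groups from DNA bases, had 113, 126 and 96 counts, or 1.89 ± 0.247 CPM per kilobase (SD, n = 3). Alkbh2 was lowest in library 3 with a deviation of −0.31, where Mgmt was highest with 0.16, and both rest on few counts. Ascc3, a helicase that works with Alkbh3, had 102, 107 and 102 CPM and 6.21 CPM per kilobase. Mismatch repair acts on the mispairs that unrepaired methylated guanine forms. In it 2 of 8 genes had rows: Msh3, a mismatch-binding protein gene, at 2.83 ± 0.094, and Exo1, an exonuclease gene, at 1.27 ± 0.164 CPM per kilobase, the latter level with the 1.28 of Mgmt.

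Base excision repair and lesion bypass deal with smaller lesions and with replication past damage. Of 10 measured base excision genes, 2 were past 0.32 in each of libraries 1, 2 and 3. This was below the 39.8%, 35.7% and 42.0% of all measured genes, many of them with low counts. It was above the 7.61%, 4.38% and 12.9% of genes with at least 1000 counts on average. Most of the 10 genes have fewer counts than that, so neither share matches their depth. Smug1, a uracil glycosylase gene, was the highest at 3.87 CPM per kilobase, with 25.1, 23.6 and 22.6 CPM. Neil2, another glycosylase gene, was the lowest, with 39, 32 and 5 counts. Of 6 measured bypass genes, 2 were past 0.32 in library 1, 0 in library 2 and 1 in library 3. In libraries 1 and 3 this too lay between those shares, and nothing is concluded from so few genes. Rad18, a ubiquitin ligase that modifies the sliding clamp at blocked forks, had 15.1, 12.9 and 8.50 CPM and a deviation of −0.72 in library 3. Rev1, a bypass polymerase, had 49.4, 55.5 and 43.2 CPM.

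Ddb2 is induced by p53 in human cells, and 7 of 23 p53 target genes of the list had rows. Their median deviation, with Ddb2 itself counted among the 7, was −0.012, 0.097 and −0.16 in libraries 1, 2 and 3. Ddb2 was the highest of them per kilobase. Eda2r, a receptor of the tumour necrosis factor family, was the lowest at 1.20 CPM per kilobase and had 5.79, 7.28 and 8.10 CPM. Gadd45a, a growth arrest gene, had 4.61, 3.59 and 2.89 CPM, the reverse order of libraries. Zmat3 followed the order of Gadd45a, and Aen that of Eda2r. Ddb2 followed neither order, but Tnfrsf10b and Pmaip1 shared its own, highest in library 2 and lowest in library 3. Whether p53 has a part in any of these orders was not tested.

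**Figure D5:**
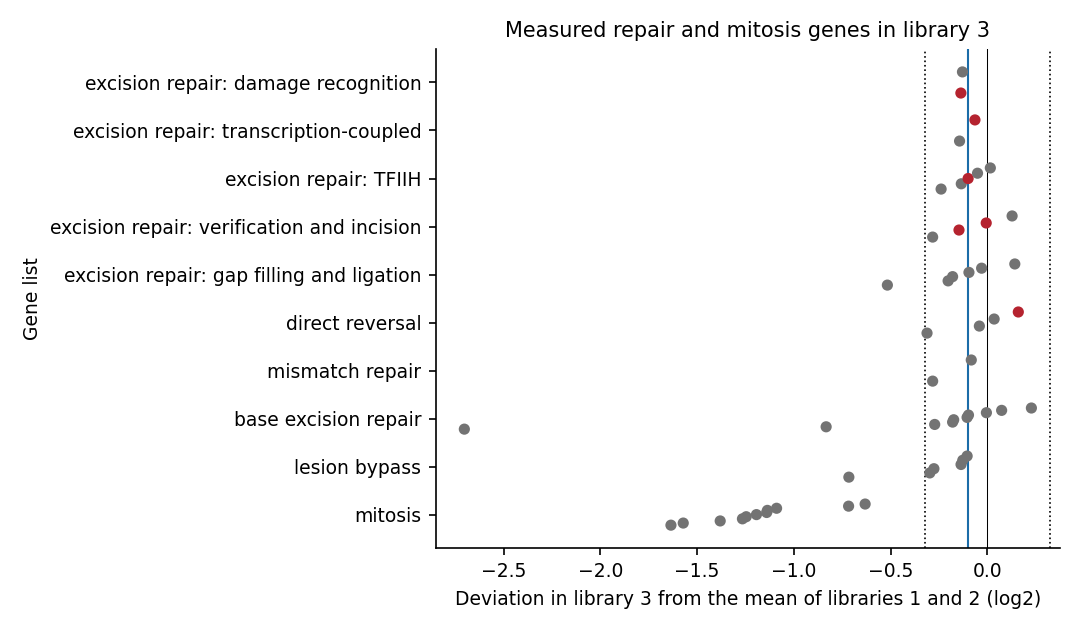
Deviation in library 3 from the mean of libraries 1 and 2 (horizontal axis, log2) of each measured gene in 10 lists (vertical axis). Members are red and other genes grey. Dotted lines mark 0.32 in either direction and the blue line the median of all measured genes, −0.098. The 6 members lie between −0.15 and 0.16. The 11 mitosis genes, from a list chosen with earlier results known, have a median of −1.19.

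The genes closest to each member over the 3 libraries were found by the Euclidean distance of log2 CPM values centred on each gene's own mean, among protein-coding genes with at least 100 counts on average. With 3 libraries such likeness is easily met: 20.5% of 4889 genes lay within 0.1 of Ercc3, 19.9% of Ercc4, 19.2% of Ercc6, 13.5% of Ercc5, 13.5% of Ddb2 and 8.39% of Mgmt. The nearest were Xpot, Rnf2 and Mef2d for Ercc3, Armc8, Zfp113 and Cbr4 for Ercc4, Zfp182, Insr and Slc33a1 for Ercc5, and Tom1l1, Rngtt and Stard9 for Ercc6. For Ddb2 they were Alg2, Creb1 and Ccdc43, and for Mgmt Rnf135, Usf1 and Zfp747. Among the members themselves, Ercc3 and Ercc4 were 0.039 apart and Ercc3 and Ercc6 0.040, while Mgmt was at least 0.195 from each of the others.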

How the data were processed

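The authors deposited whole-number counts per library, which the labels call raw, for Ensembl genes and for assembled loci. Trimming with cutadapt, FastQC checks and alignment tools (Bowtie2, TopHat2) on mm10 are listed per the submitters' processing notes. How reads were counted, and on which strand, is not given in the sources used here. Library 1 held 641 rows with a count of 1 and 781 with a count of 3, so counts may derive from estimated coverage. If so, the Poisson intervals and counting errors given here are approximate.

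Identifiers were joined to GENCODE M21 (GRCm38), and 42321 of 42675 had a symbol of their own. CPM used all rows of a library as the total. Intervals are exact 95% Poisson limits. For alternative scalings, TMM factors came from edgeR 4.0.16 and size factors from DESeq2 1.42.0 in R 4.3.3. Python 3.11.15 ran the rest, with scipy 1.17.1 for intervals, pandas 2.3.3 and numpy 2.4.6 for tables and matplotlib 3.10.9 for plots.

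Members and lists were chosen with earlier results of these data known. Genes named are the members, the 6 core excision repair genes without rows, the highest and lowest gene per kilobase and the largest deviation of each list, and 3 nearest genes per member. Acp2, Ddx3y, Uty, the p53 targets Zmat3, Aen, Tnfrsf10b and Pmaip1, and the markers singled out (those at 0, Lyz2 and Mitf) were named after their values were seen. The 3 naked mole-rat files were not used.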

Additional observations from a re-analysis of the deposited data

How the results depend on the processing

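Of 228 alternative values, 199 kept within 1 SD of the main value, or within 1.5 times for counts and shares. In no alternative did a member reach a deviation of 0.32 in any library, and the largest deviation reached was 0.27. No deviation of a member had passed that limit, so changes of sign are of small values: they occurred in 14 of 108. With TMM factors the deviation in library 3 was −0.029 for Ercc3, 0.065 for Ercc5 and 0.0065 for Ercc6, and that of Ercc6 in library 2 was −0.047. With DESeq2 size factors those in library 3 were −0.035, 0.059 and 0.00069. With the total of Ensembl rows only they were 0.011 for Ercc3, −0.036 for Ercc4, 0.10 for Ercc5, 0.046 for Ercc6, −0.027 for Ddb2 and 0.27 for Mgmt in library 3, −0.017 for Ercc3, −0.15 for Ercc5 and −0.064 for Ercc6 in library 2, and 0.018 for Ercc6 in library 1. By construction these alternatives shift all genes of a library together. Per kilobase of the longest annotated transcript, Ercc4 had 6.63, Ercc5 8.995, Ercc6 5.09 and Ddb2 8.69 CPM; per kilobase of the longest protein-coding transcript, Ercc3 had 9.62, Ercc4 9.77, Ercc5 9.76, Ercc6 5.09 and Ddb2 8.95. Leaving out 1 library gave mean levels of 25.7 to 26.6 CPM for Ercc3, 33.4 to 35.1 for Ercc4, 37.3 to 38.9 for Ercc5, 42.2 to 43.5 for Ercc6, 19.1 to 20.6 for Ddb2 and 3.57 to 3.82 for Mgmt, and left the order per kilobase as it was. With a minimum of 50 counts, 26.2% and 20.8% of genes were past 0.32 in libraries 1 and 2, and with no minimum 57.4% in library 2. No paired analysis was possible because the mouse libraries form 1 group and no member can be found in the naked mole-rat tables. Depth limits Mgmt most, whose 182 to 211 counts leave a counting error of 7.14%.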
